A study of Mus musculus with 12 samples.

Results

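The genes described here encode tubulins, microtubule-associated proteins (MAPs), regulators of microtubule growth and neuronal kinesins. They were chosen by name, as a list of 43 gene symbols, and each gene was read from the probe set that carried its symbol alone, taking the brightest on average where there were several. All 43 had such a probe set, of 19937 genes measured in this way in the whole series, and all 43 lay above the background level on all 12 arrays. The level of these genes was high, with a median of 12.27 on the log2 scale against 8.5 over all probe sets tested.

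Expression was measured in GFP-positive cells sorted from the cortex of C57BL6 mice. The 4 groups, each of 3 arrays whose labels give biological replicates A to C, were interneurons of Nkx2-1Cre;RCE mice at P10 (IN P10) and at P0 (IN P0), and pyramidal cells of NexCre;RCE mice at P12 (Pyr P12) and at P0 (Pyr P0). Every group carried a Cre driver and the RCE reporter, in which Cre switches on GFP. Nkx2-1 is active in progenitors of the medial ganglionic eminence, so this line also marks oligodendrocyte-lineage cells and leaves out interneurons of other origins, whereas Nex (Neurod6) is active in young excitatory neurons. The labels give somatosensory cortex for the pyramidal cells and cortex for the interneurons. Population, Cre line and region cannot be told apart in any comparison of interneurons with pyramidal cells. In IN P10 against Pyr P12, day of age cannot be told apart from them either.

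Microtubules are hollow polymers of alpha- and beta-tubulin dimers that give axons and dendrites their shape and serve as tracks for transport. Neurons make several tubulin isotypes from separate genes. MAPs bind and stabilize the lattice, plus-end proteins follow the growing tip, stathmins bind free dimers and favour shrinkage, severing enzymes cut the lattice and kinesins carry cargo along it. In the first postnatal weeks cortical axons branch and form synapses, and their microtubules become more stable.

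The bases before the annotated start are shown for 6 genes because the results turn on them: the 4 that were higher at the older age in both populations (Tuba4a, Tuba8, Map1a and Map7), Tuba1a as the isotype set against Tuba4a, and Kif26b, whose age change differed most between populations. Each window holds the 250 bases before a RefSeq start on GRCm38.p6, read 5′ to 3′ on the strand of the gene. The windows are chr1:75219295-75219544 on the minus strand for Tuba4a, chr6:121210484-121210733 on the plus strand for Tuba8, chr2:121289352-121289601 on the plus strand for Map1a, chr10:20148670-20148919 on the plus strand for Map7, chr15:98953502-98953751 on the minus strand for Tuba1a and chr1:178528875-178529124 on the plus strand for Kif26b. The Tuba4a gene model of RefSeq also holds a start further upstream than the one used. Capitals mark matches to 3 short motifs on either strand, which may overlap each other. The first motif is the GC box, searched as GGGCGG. The second is the box of that name searched as CCAAT, and the third is a short form of the promoter motif read as TATAA.
Tuba4a: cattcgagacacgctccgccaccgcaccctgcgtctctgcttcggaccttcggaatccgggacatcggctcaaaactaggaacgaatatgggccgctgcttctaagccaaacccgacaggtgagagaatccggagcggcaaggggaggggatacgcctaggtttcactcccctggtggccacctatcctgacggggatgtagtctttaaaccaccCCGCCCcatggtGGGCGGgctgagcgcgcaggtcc
Tuba8: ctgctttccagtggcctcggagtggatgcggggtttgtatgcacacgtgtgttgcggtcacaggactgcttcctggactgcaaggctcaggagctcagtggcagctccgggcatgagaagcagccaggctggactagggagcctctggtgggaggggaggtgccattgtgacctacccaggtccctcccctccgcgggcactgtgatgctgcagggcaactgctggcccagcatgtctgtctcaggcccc
Map1a: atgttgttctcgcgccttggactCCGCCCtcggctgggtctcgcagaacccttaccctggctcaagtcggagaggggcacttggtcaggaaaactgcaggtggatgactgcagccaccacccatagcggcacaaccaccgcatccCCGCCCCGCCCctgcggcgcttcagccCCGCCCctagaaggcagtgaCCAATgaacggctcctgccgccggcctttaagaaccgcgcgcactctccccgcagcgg
Map7: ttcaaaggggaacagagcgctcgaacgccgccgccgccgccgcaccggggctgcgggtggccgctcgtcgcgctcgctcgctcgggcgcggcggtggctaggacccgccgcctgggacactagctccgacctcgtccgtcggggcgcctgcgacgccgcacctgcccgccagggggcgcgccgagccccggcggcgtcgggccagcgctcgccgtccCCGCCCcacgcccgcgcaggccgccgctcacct
Tuba1a: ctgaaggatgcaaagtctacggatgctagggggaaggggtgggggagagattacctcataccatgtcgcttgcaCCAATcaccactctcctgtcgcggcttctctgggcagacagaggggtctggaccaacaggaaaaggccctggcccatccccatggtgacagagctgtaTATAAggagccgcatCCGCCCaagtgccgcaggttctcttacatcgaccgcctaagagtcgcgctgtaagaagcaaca
Kif26b: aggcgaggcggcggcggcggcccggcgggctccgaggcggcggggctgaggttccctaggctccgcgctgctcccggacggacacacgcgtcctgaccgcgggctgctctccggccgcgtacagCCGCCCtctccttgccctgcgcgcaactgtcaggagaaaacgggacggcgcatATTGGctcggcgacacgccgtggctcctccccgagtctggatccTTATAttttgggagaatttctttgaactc
The Map1a window held 4 matches to GGGCGG, 2 of which overlapped, and 1 to CCAAT. Tuba4a had 2 matches to GGGCGG and Map7 had 1, while the Tuba8 window held none of the 3 motifs. The windows of Tuba1a and Kif26b each held 1 match to every motif. RefSeq gave windows for 29 of the 43 genes, 38 in all since 8 genes had several. Among those 38 windows, 52.6% held GGGCGG, 39.5% held CCAAT and 34.2% held TATAA, beside 32.7%, 33.8% and 22.8% of all 32851 windows. The median share of G and C was 62.6% in the 38 windows and 52.4% in all windows. Its part in the motif shares was not tested, and windows of 1 gene are not independent. The 4 genes that were higher with age in both populations shared no motif of the 3, and a match describes letters and not a bound site.

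Over all 28192 probe sets of the series, the array medians lay between 8.121 and 8.218 on the log2 scale and arrays of one group correlated at 0.9948 to 0.9985. The 22961 probe sets with a gene symbol were fitted together in limma. Calls needed a fold change over 2 and an adjusted p (Benjamini-Hochberg, over all of these probe sets) under 0.05, and counts at any fold are given beside. Most markers followed the labels: all 12 measured interneuron markers were called higher in IN than in Pyr at both ages, and 11 of 15 pyramidal markers were called lower. Over all probe sets 2.65% were called higher and 2.91% lower in IN at the older ages, and 1.9% and 1.74% at P0. Under 2-fold, the pyramidal marker Bcl11b was higher in IN, by 0.94 (adjusted p = 1.17e-08) at the older ages and 0.61 (adjusted p = 1.56e-06) at P0. Cux2 was higher in IN by 0.71 (adjusted p = 1.31e-06) at P0 and differed by -0.96 at the older ages. The IN arrays also held oligodendrocyte signal. The summed linear level of 13 myelinating-cell markers was 8750 to 11600 in IN P10, 3520 to 3780 in IN P0, 2910 to 3040 in Pyr P12 and 2400 to 2570 in Pyr P0, with Ermn, Opalin and Aspa not above background in any group. That of 10 oligodendrocyte precursor markers was 12000 to 18400 in IN P10, 11300 to 14100 in IN P0, 4090 to 4240 in Pyr P12 and 4630 to 5080 in Pyr P0.

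Between P0 and the older age, 33 of the 43 genes were called in neither population. The share of all probe sets called in neither was not counted. In interneurons, 5 of 43 were called higher at P10, where 4.19% of all probe sets tested were, and 1 of 43 was called lower, where 2.85% were. At any fold, 20 passed as higher (22.3% of all) and 12 as lower (23.1% of all). In pyramidal cells, 4 were called higher at P12 (5.68% of all) and 5 lower (3.48% of all), and at any fold 13 were higher (33% of all) and 20 lower (21.7% of all). The median change of the 43 genes was 0.14 in IN and -0.07 in Pyr on the log2 scale, against 0 and 0.06 over all probe sets. The median size of the change, taken without its sign, was 0.31 in IN and 0.43 in Pyr, against 0.16 and 0.2 over all probe sets. All probe sets include dim ones, and none of similar level to the 43 genes were compared apart. For 28 genes in IN and 24 in Pyr the change was under 0.5 in size. In these sorted pools, fewer cells of a type and less RNA per cell cannot be told apart.

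**Figure D1:**
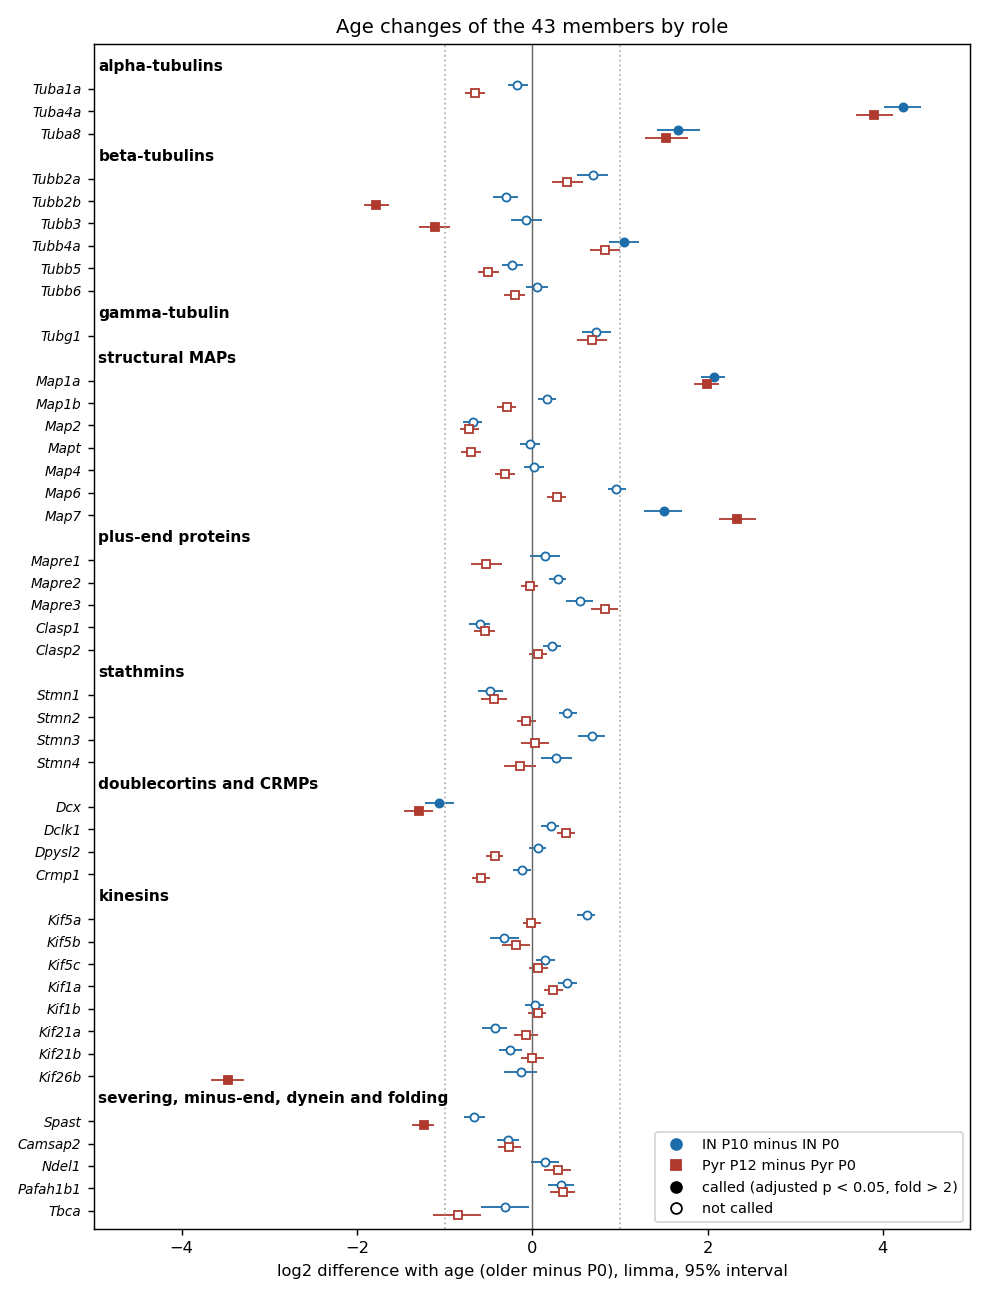
The log2 difference with age of each of the 43 genes by role, with its 95% interval from limma, for IN P10 minus IN P0 (circles) and Pyr P12 minus Pyr P0 (squares). Filled symbols are called at an adjusted p under 0.05 and a fold over 2, and dotted lines mark a 2-fold change. Tuba4a is farthest right in both populations and Kif26b in pyramidal cells is farthest left, at -3.47.

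Among the alpha-tubulins, Tuba4a (probe set 10355806), an isotype of mature neurons and other differentiated cells, had the largest age change of the 43 genes in each population. Its log2 value was 12.69, 12.56 and 12.62 on the IN P10 arrays, against 8.18, 8.66 and 8.36 on the IN P0 arrays. The Pyr P12 arrays gave 13.2, 13.27 and 13.14 and the Pyr P0 arrays 9.19, 9.4 and 9.31. Every older array lay more than 3 log2 units above every P0 array. Tuba4a rose by 4.23 ± 0.10 (moderated SE of limma, adjusted p = 3.25e-12) in interneurons, an 18.7-fold change. In pyramidal cells it rose by 3.9 ± 0.10 (adjusted p = 2.93e-12), a 14.9-fold change. The 2 increases differed by 0.32, with a 95% interval of 0.02 to 0.63 and an adjusted p of 0.0998. The IN level was the lower one at both ages, with a difference of -0.58 (adjusted p = 0.000325) for IN P10 minus Pyr P12 and -0.9 (adjusted p = 1.04e-05) for IN P0 minus Pyr P0, both under 2-fold. Without replicate B of IN P0, whose value was the highest of that group, the P0 difference was -1.03 and was called.

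Tuba8, an alpha-tubulin of divergent sequence, was at 10.13, 10.19 and 10.29 in IN P10 against 8.51, 8.45 and 8.66 in IN P0, and at 10.16, 10.04 and 9.62 in Pyr P12 against 8.34, 8.37 and 8.51 in Pyr P0. The older arrays lay above the P0 arrays in both populations, and the IN and Pyr arrays overlapped at each age. It rose by 1.66 (SE 0.11, adjusted p = 3.67e-08) in IN and by 1.53 (SE 0.11, adjusted p = 5.94e-08) in Pyr. The 2 changes differed by 0.13, with a 95% interval of -0.21 to 0.47.

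Tuba1a, the main alpha-tubulin of migrating and growing neurons, was among the brightest genes on the arrays, at 14.3, 14.19 and 14.17 in IN P10 against 14.43, 14.42 and 14.32 in IN P0. Pyr P12 arrays gave 13.96, 13.93 and 13.92 against 14.61, 14.61 and 14.55 in Pyr P0. The older arrays were the lower ones in both populations with no overlap, with a change of -0.17 (adjusted p = 0.02) in IN and -0.65 (adjusted p = 1.75e-07) in Pyr, both under 2-fold. The highest value on any array was 14.73, so these values lay near the upper end of the scale. Whether the scanner's upper limit compressed the difference was not tested. The age changes of Tuba1a differed between populations by 0.49 (adjusted p = 0.000239). Tuba1b and Tuba1c had no probe set of their own, and 3 probe sets shared by Tuba1a, Tuba1b and Tuba1c changed by -0.18 to 0.16 in IN and by -0.26 to -0.07 in Pyr.

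Of the 6 beta-tubulins, 1 was called higher with age in IN and 2 were called lower in Pyr. Tubb4a, an isotype of mature neurons and of oligodendrocytes, was at 13.08, 13.2 and 13.26 in IN P10 against 11.98, 12.26 and 12.16 in IN P0, and at 13.29, 13.12 and 13.29 in Pyr P12 against 12.37, 12.34 and 12.49 in Pyr P0. All older arrays lay above all P0 arrays of their population. The change was 1.05 (SE 0.08, adjusted p = 1.02e-07) in IN, just past 2-fold, and 0.83 (SE 0.08, adjusted p = 7.91e-07) in Pyr, just short of it. Without replicate A of IN P0 the IN change was 0.97 and no longer called. The 2 changes differed by 0.21, with a 95% interval of -0.03 to 0.46. The myelin marker sums given above were also higher in IN P10 than at P0. Tubb4a in IN P10 minus Pyr P12 was -0.05 (95% interval -0.22 to 0.12), where those sums were 8750 to 11600 in IN P10 and 2910 to 3040 in Pyr P12. The part of oligodendrocyte RNA in the Tubb4a values was not tested.

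Tubb2b, a beta-tubulin of young neurons, was called lower with age in Pyr and not in IN. It was at 13.61, 13.63 and 13.55 in IN P10 against 13.86, 13.94 and 13.9 in IN P0, and at 12.13, 12.09 and 12.36 in Pyr P12 against 13.96, 14 and 13.95 in Pyr P0. The 3 Pyr P12 arrays stood over 1 log2 unit under all 9 others. The change was -0.3 (SE 0.07, adjusted p = 0.00139) in IN and -1.78 (SE 0.07, adjusted p = 6.35e-11) in Pyr, a 3.43-fold decrease. Tubb2a, a paralog of nearly identical coding sequence, was higher at the older age, by 0.69 (adjusted p = 7.77e-06) in IN and 0.4 (adjusted p = 0.000854) in Pyr, neither past 2-fold. A probe set shared by Tubb2a, Tubb2b and a pseudogene changed by -0.28 in IN and -1.99 in Pyr. How much of the RNA of one gene was read by probes of the other was not tested.

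Tubb3, the class III beta-tubulin used as a marker of neurons, was at 12.29, 12.23 and 12.2 in IN P10 against 12.39, 12.39 and 12.12 in IN P0, and at 11.81, 11.77 and 11.88 in Pyr P12 against 12.89, 13.07 and 12.82 in Pyr P0. The IN groups overlapped and the Pyr groups did not. The change was -0.07 (95% interval -0.24 to 0.11) in IN, and Tubb3 fell by 1.11 (SE 0.08, adjusted p = 5.1e-08) in Pyr, a 2.16-fold decrease. Tubb5, the most widely used beta-tubulin, decreased by 0.23 (adjusted p = 0.00314) in IN and decreased by 0.5 (adjusted p = 3.13e-06) in Pyr, both under 2-fold. Tubb6, a beta-tubulin known mainly from tissues other than brain, had group means of 8.32 to 8.58 and differed by at most 0.26 in any comparison. Tubg1, the gamma-tubulin that seeds new microtubules, was higher by 0.73 (adjusted p = 2.9e-06) in IN and 0.68 (adjusted p = 5.1e-06) in Pyr, both under 2-fold.

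**Figure D2:**
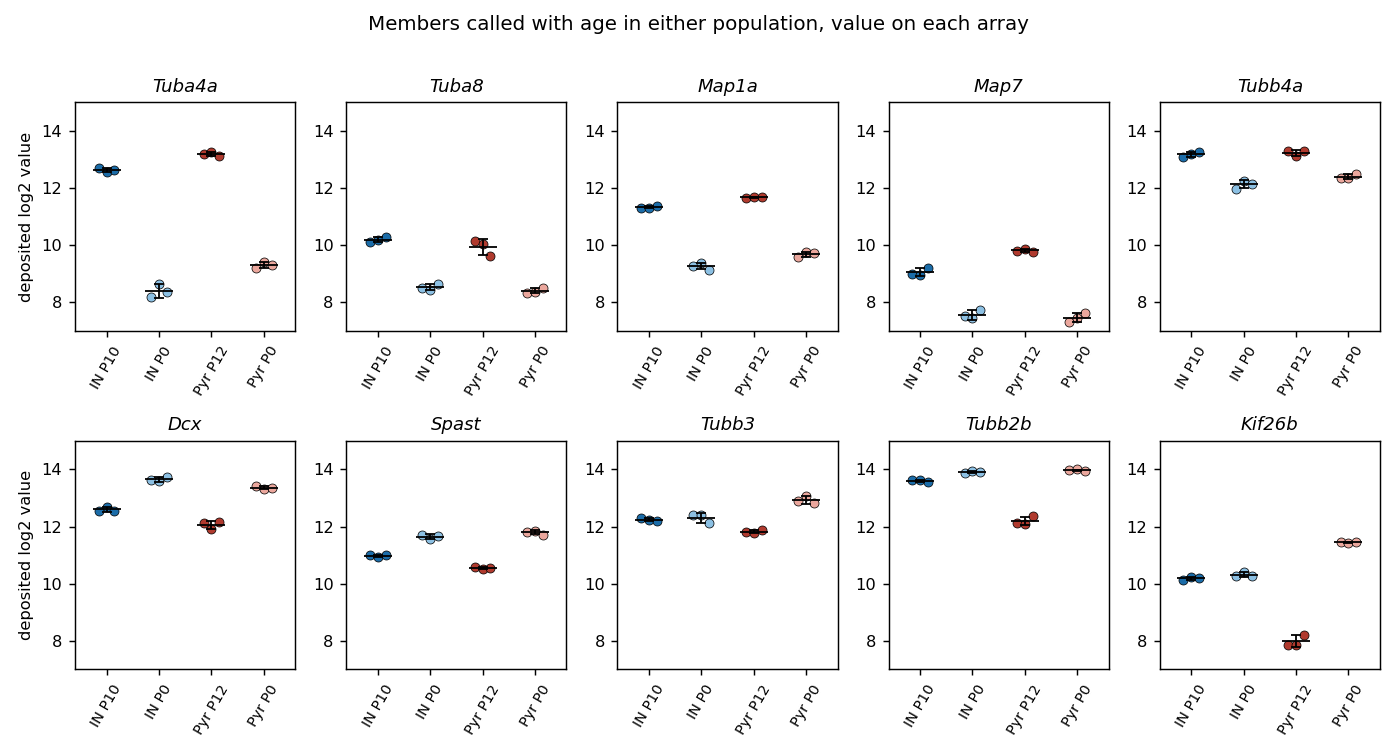
The deposited log2 value on each array (dots) with the group mean and SD (bars, n = 3) for the 10 genes called with age in either population, in the order IN P10, IN P0, Pyr P12, Pyr P0. Tuba4a, Tuba8, Map1a and Map7 are higher at the older age in both populations, and Kif26b, Tubb2b and Tubb3 are lowest in Pyr P12.

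Among the 7 MAPs, Map1a and Map7 were called higher with age in both populations and none was called lower. Map1a, which binds microtubules of mature dendrites and axons, was at 11.32, 11.31 and 11.39 in IN P10 against 9.28, 9.38 and 9.15 in IN P0, and at 11.67, 11.68 and 11.7 in Pyr P12 against 9.6, 9.75 and 9.73 in Pyr P0. Older and P0 arrays were well apart in both. The rise was 2.07 (SE 0.06, adjusted p = 3.4e-11) in IN and 1.99 (SE 0.06, adjusted p = 1.92e-11) in Pyr, and the 2 differed by 0.08 with a 95% interval of -0.12 to 0.27. Map7, which recruits conventional kinesin to microtubules, was at 9, 8.95 and 9.22 in IN P10 against 7.51, 7.44 and 7.75 in IN P0, and at 9.81, 9.86 and 9.78 in Pyr P12 against 7.31, 7.47 and 7.64 in Pyr P0. The P0 arrays of both populations overlapped and the Pyr P12 arrays stood above the IN P10 arrays. Map7 rose by 1.5 (SE 0.10, adjusted p = 2.67e-08) in IN and by 2.34 (SE 0.10, adjusted p = 2.15e-10) in Pyr. Its P0 values lay just above the background level, which was 7.134 to 7.455 over the arrays. How far this limits the size of the rises was not tested. The IN rise minus the Pyr rise was -0.85 (SE 0.14, adjusted p = 0.000364), under 2-fold.

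Map6, a protein of cold-stable microtubules, was at 11.71, 11.68 and 11.73 in IN P10 against 10.73, 10.8 and 10.68 in IN P0, and at 11.97, 11.98 and 12 in Pyr P12 against 11.64, 11.75 and 11.71 in Pyr P0. The IN P0 arrays stood well under the other 9. Its age change was 0.96 (adjusted p = 3.27e-09) in IN, a 1.95-fold difference just short of the threshold, and 0.28 (adjusted p = 0.000293) in Pyr, and these differed by 0.68 (adjusted p = 7.55e-06). Map2, the dendritic MAP, decreased by 0.68 (adjusted p = 1.03e-07) in IN and decreased by 0.72 (adjusted p = 3.81e-08) in Pyr, with a difference of 0.05 (95% interval -0.11 to 0.2). Mapt, which encodes the axonal MAP tau, differed by -0.03 (95% interval -0.14 to 0.09) in IN and decreased by 0.7 (adjusted p = 7.32e-08) in Pyr. Map1b, the MAP of growing axons, was higher by 0.17 (adjusted p = 0.0108) in IN and decreased by 0.29 (adjusted p = 0.000141) in Pyr, and the ubiquitous Map4 differed by 0.02 and -0.31. A second, dimmer Map4 probe set differed by -0.35 in IN and -0.4 in Pyr.

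None of the 5 plus-end proteins was called with age. Mapre3, the end-binding protein enriched in neurons, was higher by 0.54 (adjusted p = 2.29e-05) in IN and 0.83 (adjusted p = 3.05e-07) in Pyr. Mapre1, the ubiquitous end-binding protein, differed by 0.15 (95% interval -0.03 to 0.32) in IN and decreased by 0.53 (adjusted p = 7.13e-05) in Pyr, and its 2 changes differed by 0.67 (adjusted p = 0.000459). Mapre2 was higher by 0.29 in IN and differed by -0.03 in Pyr. Of the rescue factors that hold growing ends, Clasp1 decreased by 0.6 (adjusted p = 6.88e-07) in IN and decreased by 0.54 (adjusted p = 1.9e-06) in Pyr, while Clasp2 differed by 0.22 and 0.06.

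The stathmins, which bind free tubulin dimers, did not move as one. Stmn1 decreased by 0.48 (adjusted p = 5.11e-05) in IN and decreased by 0.44 (adjusted p = 9.76e-05) in Pyr. In IN alone Stmn3 was higher by 0.68 (adjusted p = 3.25e-06), Stmn2 by 0.4 (adjusted p = 6.63e-06) and Stmn4 by 0.27 (adjusted p = 0.014), against 0.03, -0.07 and -0.14 in Pyr, none past the adjusted p there. The age changes of these 3 differed between populations by 0.65 (adjusted p = 0.000295), 0.47 (adjusted p = 0.000111) and 0.41 (adjusted p = 0.0147). A second Stmn3 probe set was not above background on any array.

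Dcx, which encodes the doublecortin of migrating and young neurons, was the only member called lower with age in both populations. It was at 12.53, 12.7 and 12.56 in IN P10 against 13.64, 13.58 and 13.74 in IN P0, and at 12.13, 11.9 and 12.17 in Pyr P12 against 13.42, 13.32 and 13.34 in Pyr P0. All older arrays lay under all P0 arrays. Dcx fell by 1.06 (SE 0.08, adjusted p = 6.36e-08) in IN and by 1.29 (SE 0.08, adjusted p = 6.11e-09) in Pyr, and the 2 changes differed by 0.24 with a 95% interval of 0.01 to 0.47 (adjusted p = 0.111). Its paralog Dclk1, a doublecortin-like kinase, was higher by 0.21 (adjusted p = 0.00322) in IN and 0.38 (adjusted p = 1.67e-05) in Pyr. The collapsin response mediators Dpysl2 and Crmp1, which bind tubulin dimers in growing axons, differed by 0.06 (95% interval -0.04 to 0.16) and -0.12 (95% interval -0.22 to -0.01) in IN, neither past the adjusted p. In Pyr the change was -0.43 (adjusted p = 3.13e-06) for Dpysl2 and -0.58 (adjusted p = 1.86e-07) for Crmp1.

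Of the 8 kinesins, 7 differed by less than 1 log2 unit in every comparison. Kif5a, a conventional kinesin heavy chain of neurons, was at 12.42, 12.4 and 12.5 in IN P10 against 11.82, 11.83 and 11.81 in IN P0, and at 12.08, 12.06 and 12.02 in Pyr P12 against 12.01, 12.07 and 12.11 in Pyr P0. The IN groups stood apart and the Pyr groups overlapped. The change was 0.62 (adjusted p = 1.63e-07) in IN and -0.01 (95% interval -0.11 to 0.1) in Pyr, with a difference of 0.63 (adjusted p = 1.24e-05). The other conventional heavy chains differed less, Kif5b by -0.32 in IN and -0.19 in Pyr and Kif5c by 0.15 and 0.07. Kif1a, a carrier of synaptic vesicle precursors, was higher by 0.4 in IN and 0.24 in Pyr, and Kif1b differed by 0.03 and 0.06. Kif21a and Kif21b, which limit microtubule growth, differed by -0.43 and -0.25 in IN, both past the adjusted p, and by -0.07 and 0 in Pyr, neither past it.

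Kif26b (probe set 10352143), an atypical kinesin, had the largest fall of any member. Its value was 10.14, 10.24 and 10.19 in IN P10 against 10.27, 10.42 and 10.28 in IN P0, and 7.85, 7.87 and 8.22 in Pyr P12 against 11.47, 11.43 and 11.45 in Pyr P0. The Pyr P12 arrays were the lowest by about 2 log2 units, the Pyr P0 arrays were the highest and the IN arrays of both ages lay between them. The age difference was -0.13 (SE 0.09, 95% interval -0.32 to 0.05) in IN, and Kif26b fell by 3.47 (SE 0.09, adjusted p = 2.25e-12) in Pyr, an 11.1-fold decrease. A second Kif26b probe set gave 0.1 in IN and -2.5 in Pyr (adjusted p = 3e-11). On the first probe set the Pyr P12 values were not far above the background level, 7.134 to 7.455 over the arrays. How far this limits the size of the fall was not tested.

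Of the remaining 5 genes, Spast, which encodes the severing enzyme spastin, was at 11.01, 10.95 and 11 in IN P10 against 11.7, 11.55 and 11.67 in IN P0, and at 10.57, 10.53 and 10.55 in Pyr P12 against 11.82, 11.85 and 11.71 in Pyr P0. All older arrays lay under all P0 arrays. It decreased by 0.66 (adjusted p = 3.42e-07) in IN, under 2-fold, and fell by 1.24 (adjusted p = 4.52e-10) in Pyr, and these changes differed by 0.59 (adjusted p = 7.48e-05). Tbca, a cofactor in beta-tubulin folding, differed by -0.31 (adjusted p = 0.0624) in IN and decreased by 0.85 (adjusted p = 6.04e-05) in Pyr. Camsap2, which caps minus ends, decreased by 0.28 (adjusted p = 0.00126) in IN and decreased by 0.26 (adjusted p = 0.0018) in Pyr. The dynein regulators Pafah1b1 (Lis1) and Ndel1 were higher by 0.33 and 0.14 in IN, the second not past the adjusted p, and by 0.35 and 0.29 in Pyr.

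The IN and Pyr age comparisons share no arrays, so the values of the 43 genes in them can be set side by side. The change had the same sign in 34 of 43 genes (79.1%), where 70.9% of all probe sets tested had. Across these genes Pearson's r was 0.84 and Spearman's rho 0.83, and r was 0.87 without Tuba4a and Kif26b, against 0.67 over all probe sets. The 43 genes were brighter than most, with a median level of 12.27 against 8.5 over all probe sets. No set of probe sets of similar level was compared, so these shares and correlations cannot be read as particular to the 43 genes. Genes are not independent replicates, and all 12 arrays share 1 normalization. In both populations 4 were called higher and 1 lower, Tubb4a was called in IN only, Tubb2b, Tubb3, Kif26b and Spast in Pyr only, and 33 in neither. The matching shares over all probe sets were not counted, so these numbers cannot be read against the whole series. A call in one population alone does not show a difference, which was tested by the interaction given below.

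**Figure D3:**
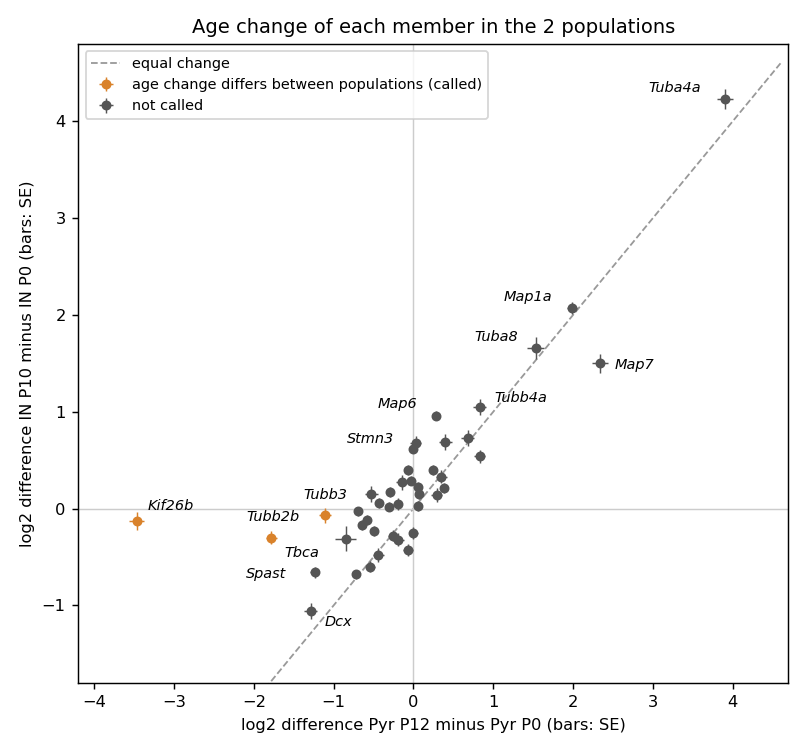
The log2 age change in IN (vertical axis) against that in Pyr (horizontal axis) for the 43 genes, with SE bars. The dashed line marks equal change, and the 3 genes whose age change was called as different between populations, Kif26b, Tubb2b and Tubb3, lie to the left of it.

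Isotype pairs were compared as the difference of 2 genes' log2 values on each array and its shift with age, which shows unequal change and not a ratio of the 2 proteins. Tuba4a shifted against Tuba1a by 4.39 ± 0.14 (SE) in IN and 4.55 ± 0.07 in Pyr, a 21-fold and a 23.5-fold change of their ratio. Most of that shift came from Tuba4a, since Tuba1a differed by under 1 log2 unit. Tubb4a shifted against Tubb3 by 1.11 ± 0.15 in IN and 1.94 ± 0.12 in Pyr, and Tubb2a against Tubb2b by 0.99 ± 0.09 and 2.18 ± 0.11. Among MAPs and plus-end proteins, Map1a shifted against Map1b by 1.9 ± 0.09 in IN and 2.28 ± 0.06 in Pyr, and Mapre3 against Mapre1 by 0.39 ± 0.16 and 1.35 ± 0.12.

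In all 5 of these pairs the first-named gene gained on the second in both populations. The pairs and the order of the genes in each were chosen, so the shared direction is not a result of its own. The IN shift minus the Pyr shift was -0.83 ± 0.19 (SE) for Tubb4a against Tubb3, -1.19 ± 0.14 for Tubb2a against Tubb2b, -0.96 ± 0.2 for Mapre3 against Mapre1 and -0.38 ± 0.11 for Map1a against Map1b. For Tuba4a against Tuba1a the difference was -0.16 ± 0.16, about the size of its error. Among the kinesin and stathmin pairs, Kif5a against Kif5c shifted by 0.47 ± 0.05 in IN and -0.08 ± 0.06 in Pyr. The IN shift minus the Pyr shift of this pair was 0.55 ± 0.07, opposite in sign to those above. Kif21a against Kif21b shifted by -0.18 in IN and -0.06 in Pyr, and Stmn4 against Stmn2 by -0.13 and -0.08. For these last pairs the IN shift minus the Pyr shift was -0.12 ± 0.08 and -0.06 ± 0.14. An exact 2-sided permutation test over the 6 arrays of a population cannot go below p = 0.1, the value reached by 12 of the 16 shifts, and 0.133 after adjustment over the 16.

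**Figure D4:**
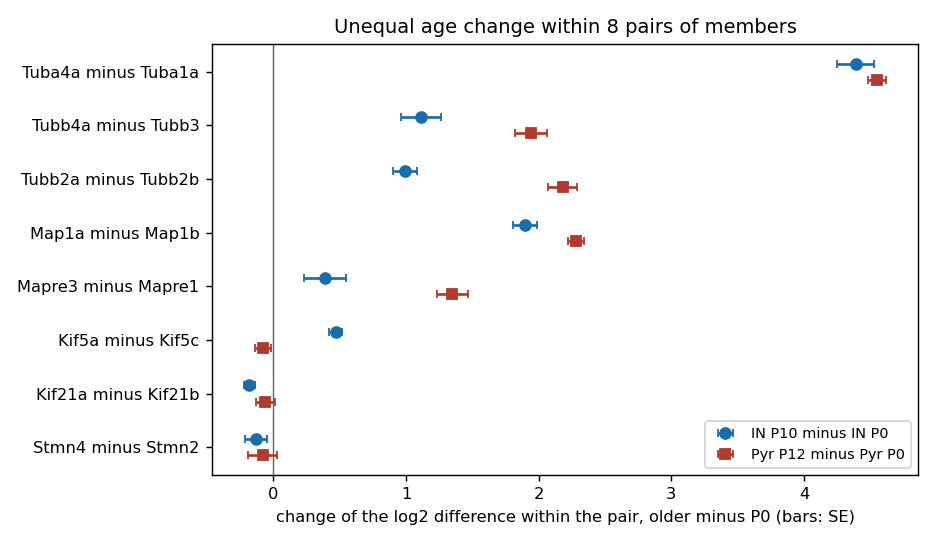
The shift with age of the log2 difference within 8 pairs of genes, for IN (circles) and Pyr (squares), with SE bars. The pair Tuba4a minus Tuba1a shifted by over 4 log2 units in both populations, and the kinesin and stathmin pairs lay within 0.5 of 0.

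Between the older groups, 2 of 43 genes were called higher in IN P10, where 2.65% of all probe sets were, and 0 were called lower, where 2.91% were. At any fold 17 were higher (16.1% of all) and 9 lower (30.4% of all). This comparison uses the same IN P10 and Pyr P12 arrays as the age comparisons. Kif26b was higher in IN P10 by 2.21 (SE 0.09, adjusted p = 1.83e-10), a 4.63-fold difference, and by 1.58 on its second probe set. Tubb2b was higher by 1.4 (SE 0.07, adjusted p = 1.07e-09), a 2.64-fold difference. Under 2-fold, Mapre1 was higher in IN P10 by 0.7 (adjusted p = 8.23e-06), Mapt by 0.58 (adjusted p = 8.18e-07) and Dcx by 0.53 (adjusted p = 6.41e-05), while the difference was -0.76 for Map7 (adjusted p = 2.66e-05) and -0.47 for Kif21b (adjusted p = 2.7e-05).

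At P0 the ages match, while the labelled region still goes with population. The median size of the difference between populations was 0.15 for the 43 genes at P0, against 0.26 between the older groups. Over all probe sets it was 0.08 and 0.17, so the smaller size at P0 was not particular to these genes. In IN P0 relative to Pyr P0, 0 of the 43 genes were called higher (1.9% of all) and 1 was called lower (1.74% of all). This was Kif26b, with a difference of -1.13 (SE 0.09, adjusted p = 2.5e-07), and -1.02 on its second probe set. At any fold 2 were higher (11.1% of all), Kif21a by 0.42 and Dcx by 0.29, and 16 were lower (11.3% of all). After Kif26b, the difference was -0.96 for Map6 (adjusted p = 6.48e-09), -0.9 for Tuba4a, -0.62 for Tubb3 (adjusted p = 4.64e-05) and -0.42 for Map1a (adjusted p = 0.000193). Markers of the other population were also measured. The summed level of 15 pyramidal markers was 14400 to 17200 in IN P0 and 39700 to 41300 in Pyr P0, beside 11500 to 12300 in IN P10. In IN 5 of the 15 were called lower at P10 (2.85% of all) and 2 higher (4.19% of all). Neurod6 was not above background in IN P10 and at 9.85 in IN P0, while Camk2a was at 11.44 in IN P10 and 9.32 in IN P0 and Nrgn at 11.3 in IN P10 and 9.01 in IN P0. The summed level of 12 interneuron markers was 64200 to 67600 in IN P0 and 5970 to 8370 in Pyr P0, beside 2700 to 2980 in Pyr P12. In Pyr 7 of the 12 were called lower at P12 (3.48% of all) and 0 higher (5.68% of all). Their part in the P0 differences was not tested.

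The age change itself differed between populations for 3 genes, called higher by the interaction in limma (IN change minus Pyr change, 2.24% of all probe sets), and 0 were called lower (2.63% of all). These were Kif26b by 3.34 (SE 0.12, adjusted p = 5.49e-10), Tubb2b by 1.47 (SE 0.09, adjusted p = 7.07e-08) and Tubb3 by 1.05 (SE 0.11, adjusted p = 1.07e-05). In all 3 the pyramidal cells had the fall, and the IN change was -0.3 or smaller in size. The Tubb3 difference stood just past 2-fold and was 0.96 without replicate C of IN P0 and 0.98 without replicate B of Pyr P0. Over the 43 genes the interaction was positive for 31 and negative for 12, with a median of 0.25 against -0.07 over all probe sets. Since the older ages were P10 and P12, a longer interval in Pyr cannot be told apart from population in these values, and neither can the labelled region.

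Other genes of the same machinery were read from 6 lists, which leave out the 43. Their median age changes lay between -0.16 and 0.17 in IN and between -0.3 and 0.04 in Pyr, beside 0 and 0.06 over all probe sets. The counts called with age in each list stand beside the shares of all probe sets. Those were 4.19% higher and 2.85% lower in IN, and 5.68% higher and 3.48% lower in Pyr. Of 16 other transport kinesins and light chains measured, 1 was called higher with age in IN, and 2 higher and 1 lower in Pyr. Kifc2, a minus-end-directed kinesin of neurons, rose by 1.71 (adjusted p = 1.36e-09) in IN and 1.9 (adjusted p = 2.67e-10) in Pyr, and in Pyr Kif17, a dendritic kinesin, rose by 1.31 while Kif26a, the paralog of Kif26b, fell by 1.15 (adjusted p = 1.06e-08). Of 21 dynein and dynactin genes, 2 were called higher in IN and 1 in Pyr. The light chain gene Dynlt3 rose by 1.66 and 1.48. The intermediate chain gene Dync1i1 rose by 1.58 in IN and was not called in Pyr, and it had a difference of -2.72 for IN P0 minus Pyr P0 (adjusted p = 7.96e-09) and an age change that differed by 2.23 (adjusted p = 2.57e-06). The difference of the light chain gene Dynll1 was -1.12 for IN P10 minus Pyr P12.

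The 24 measured enzymes that modify or sever tubulin moved in both directions. In IN 1 was called higher (4.19% of all probe sets) and 3 lower (2.85% of all). In Pyr 3 were called higher (5.68% of all) and 4 lower (3.48% of all). Ttll7, a beta-tubulin polyglutamylase, rose by 1.79 in each population (adjusted p = 3.16e-09 in IN and 1.9e-09 in Pyr). Vash2, a carboxypeptidase that removes the terminal tyrosine of alpha-tubulin, fell by 1.24 (adjusted p = 1.91e-06) in IN and fell by 3.66 (adjusted p = 3.68e-11) in Pyr, and these falls differed by 2.42 (adjusted p = 3.18e-07). Its partner Svbp fell by 1.33 in IN and fell by 1.41 in Pyr. In Pyr the deglutamylase gene Agbl4 rose by 1.89 (adjusted p = 1.91e-10), and its IN change minus its Pyr change was -1.23. Atat1, the alpha-tubulin acetyltransferase, fell by 1.76 (adjusted p = 2.61e-10) in Pyr and was not called with age in IN. For IN P10 minus Pyr P12 its difference was 1.23 (adjusted p = 1.61e-08), with an interaction of 1.11.

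Of 18 folding factors, 1 was called, the chaperonin subunit Cct4, which fell by 1.14 (adjusted p = 2.96e-08) in Pyr. The list's median there was -0.3, against 0.06 over all probe sets, and -0.07 in IN. Of 35 other MAPs and plus-end proteins, 3 were called higher (4.19% of all) and 2 lower (2.85% of all) in IN. In Pyr 3 were called higher (5.68% of all) and 3 lower (3.48% of all). Tppp, a microtubule-bundling protein known from oligodendrocytes, rose by 1.19 in IN and 2.12 (adjusted p = 2.41e-11) in Pyr. The oligodendrocyte marker sums of the 4 groups are given above, and their part in the Tppp values was not tested. Map7d2, a relative of Map7, rose by 1.31 and 1.88. Map6d1, a relative of Map6, rose by 1.16 (adjusted p = 5.18e-09) in IN and 2.55 (adjusted p = 2.4e-12) in Pyr, with an IN change minus Pyr change of -1.39. Slain1, a plus-end protein, fell by 1.19 in IN. For IN P10 minus Pyr P12 the difference was -1.05 for Tppp3, and for IN P0 minus Pyr P0 it was 1.33 for Mtus2 with an interaction of -1.62. Dpysl3, a collapsin response mediator of growing axons, fell by 1.42 in Pyr and was not called with age in IN, with an interaction of 1.04. None of the 7 other tubulins measured was called in any comparison, and Tuba3b and Tubal3 were not above background in any group.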

How the data were processed

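RNA of sorted GFP-positive cells was hybridized to Affymetrix Mouse Gene 1.0 ST arrays. The deposited values are log2 expression values that the authors made with RMA (named in the submitters' processing notes, version not given in the sources used here), which corrects background, quantile-normalizes the arrays and summarizes probes, and which can compress differences of the dimmest and brightest probe sets. The table held 28192 probe sets on 12 arrays with 0 missing values. No genome build is named with it, so no coordinates are given for probe sets.

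Of these, 22961 had a gene symbol in the platform annotation, 21640 of them exactly 1. Per array, the level under which 95% of 1204 probe sets of olfactory or vomeronasal receptors lay served as background (7.134 to 7.455). All 4 groups entered 1 limma fit (limma 3.58.1, R 4.3.3) with no block and 8 residual degrees of freedom, and adjusted p-values are Benjamini-Hochberg values over 22961 probe sets. The SEs, intervals and p-values of limma are moderated by eBayes. It draws each spread towards one shared by all probe sets and adds prior degrees of freedom to the 8. The methods of the study name SAM at the same thresholds, which was run as an alternative with all 20 permutations of 6 arrays. The fit was tested on simulated data. The 3 arrays of a group are labelled biological replicates, and their number limits the precision.

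The 43 genes and the pathway and marker lists were chosen with earlier results of these data known. The isotype pairs, and the order of genes in each, were drawn from the 43. Named are all 43, of each pathway list up to 3 called genes with the largest difference in each comparison, and the markers. Any further value of those genes was picked after it was seen. Promoter windows are RefSeq's on GRCm38.p6. Alternatives were SAM, 2 groups alone, robust eBayes with an intensity trend, a replicate block, dropping dim probe sets, testing unnamed ones too, 2 other scalings, other thresholds, the mean of a gene's probe sets and leaving out each array. The lists of astrocyte, microglia, endothelial and mural and cycling-cell markers were also read. Of their measured genes 1 of 12, 0 of 11, 0 of 11 and 0 of 13 were called higher with age in IN (4.19% of all probe sets). In Pyr these were 2 of 12, 0 of 11, 0 of 11 and 0 of 13 (5.68% of all), and none was lower in either. The summed level of the 12 astrocyte markers was 9030 to 9380 in Pyr P12 and 2710 to 2780 in Pyr P0. It was 3400 to 4120 in IN P10 and 3060 to 3480 in IN P0. In Pyr Slc1a2 rose by 4.17 and Aldh1l1 by 1.29, while Aqp4, Gjb6, Gja1 and Gli3 were not above background in any group. Plots used Python 3.11.15 and matplotlib 3.10.9.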

Additional observations from a re-analysis of the deposited data

Results flagged for a closer look

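For 3 genes the age change differed between interneurons and pyramidal cells by the test of that difference. Kif26b differed by 3.34 on the log2 scale (IN change minus Pyr change, adjusted p = 5.49e-10 in limma), Tubb2b by 1.47 (adjusted p = 7.07e-08) and Tubb3 by 1.05 (adjusted p = 1.07e-05). Each fell in Pyr P12 on 3 of 3 arrays relative to all Pyr P0 arrays, while the IN changes were -0.13, -0.3 and -0.07. A second Kif26b probe set differed by 2.6 (adjusted p = 4.91e-09), and a probe set shared by Tubb2b and Tubb2a by 1.71.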

How the results depend on the processing

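The counts of genes called in the 4 comparisons of groups did not move under SAM or a fit of the 2 groups alone, neither of which was run for the interaction. Those counts and that of the interaction did not move under an intensity trend with robust eBayes, removal of dim probe sets, inclusion of unnamed ones, centring, a second quantile normalization, an adjusted p under 0.01 or the mean of a gene's probe sets. They moved with the fold threshold. At a fold over 1.5, 10 genes were called higher and 4 lower with age in IN, 7 higher and 9 lower in Pyr, 3 higher (2 at a fold over 2) and 1 lower in IN P10 against Pyr P12, 4 lower in IN P0 against Pyr P0 and 10 by the interaction. With no fold threshold these counts were 20, 12, 13 and 20 with age, 17 higher and 9 lower between the older groups, 2 higher and 16 lower at P0, and 24 by the interaction. The shares of all probe sets at a fold over 1.5, and for the interaction with no fold threshold, were not counted. Those counts therefore cannot be read against the whole series. Leaving out each array in turn gave 4 to 5 genes higher with age in IN, 1 to 2 lower in IN P0 than in Pyr P0 (Tuba4a the added gene, without replicate B of IN P0) and 2 to 3 by the interaction. The replicate letters did not pair the arrays: deviations of same-lettered arrays correlated at -0.18 to 0.19 over 6 pairs of groups, and 5 of 12 arrays correlated best with their own letter. With the replicate block the counts were unchanged, at 5 higher and 1 lower in IN and 4 higher and 5 lower in Pyr. Each group holds 1 array of each letter, so the block leaves every log2 difference as it was. Called genes had adjusted p-values in limma of at most 1.07e-05 (Tubb3, interaction), so the threshold of 0.01 could not change a call. No direction of a value past the adjusted p reversed under any alternative. Only the other scalings, the mean of a gene's probe sets and leaving out arrays could change a log2 difference. Values near the top of the scale (Tuba1a) and probes shared by near-identical tubulins limit what the arrays can resolve.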
